A study of Rattus norvegicus with 6 samples.

Results

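Angiotensin receptors, angiotensinogen, angiotensin-processing peptidases and nitric oxide synthases were described in 2 cell fractions of the rat epididymis. The 9 genes were taken from a list of names: the receptor genes Agtr1a, Agtr1b, Agtr2 and Mas1, the precursor gene Agt, the peptidase genes Ace and Enpep, and the synthase genes Nos1 and Nos3. Each was represented by the probe set with its single symbol, and 8 of the 9 were among the 18166 genes tested; Enpep was not analysed here.

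Sperm from the testis acquire motility and fertility in the epididymis, a long convoluted tube. Epididymal cells of Sprague-Dawley rats aged 48 days were sorted with magnets into basal cells and, as the non-basal group, the remaining cells. Basal cells lie on the basement membrane beneath the tall principal cells and the proton-secreting clear cells that face the lumen. For each group 3 Affymetrix RaGene 2.0 ST arrays were run with total RNA, 6 arrays in all. No genotype or treatment separated the groups; both shared strain, age and organ. The labels name neither the surface molecule of the separation nor the animal behind each array, so p-values reflect the spread among these arrays alone, and that spread may be technical.

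Angiotensinogen is cut to angiotensin I, which angiotensin-converting enzyme (Ace) trims to angiotensin II. Angiotensin II acts through type 1 receptors, of which rodents carry duplicate genes, and through the type 2 receptor, whereas Mas1 is linked to the shorter angiotensin peptides. Nitric oxide synthases make nitric oxide from arginine, and the gas activates soluble guanylate cyclase to form cyclic GMP. In the epididymis, basal cells have been reported to sense angiotensin II of the lumen through the type 2 receptor and to signal to clear cells through nitric oxide and cyclic GMP. The values here are RNA of whole fractions and measure neither receptor protein nor signalling. A gene that is lower in the basal fraction than in the mixed remainder need not be absent from basal cells.

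Values are log2 expression units made by robust multi-array average (RMA), so a difference of 1 is a change of 2-fold. Where 3 values are given for a fraction, they follow the replicate numbers 1 to 3. Array medians lay between 6.63 and 6.70. Of the 10 basal epithelial markers listed for this report, 10 were higher in the basal fraction, the direction its label gives. Their mean levels were 10.34 to 10.71 on the basal arrays and 7.45 to 8.33 on the non-basal arrays. Cldn1, Krt14 and Itgb4, the brightest of them, were higher by log2 differences of 1.90, 3.40 and 2.82. Had one of these been the surface molecule of the separation, its difference would be no check. The list was also chosen with earlier results of these data known, so its count is no independent check of the label. The brightest principal cell markers, Lcn5, Clu and Adam7, were bright in both fractions. They averaged 13.53, 13.52 and 12.74 on the basal and 13.85, 13.78 and 13.38 on the non-basal arrays, and were not called by limma. Basal replicate 3 stood apart from the other basal arrays in stromal markers, as given beside the results below. Non-basal replicate 1 stood apart from the other non-basal arrays in macrophage, lymphocyte, fibroblast and basal epithelial markers. Its basal epithelial list mean was 7.45, against 8.29 and 8.33 on the other non-basal arrays.

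The comparison asked which members of the 2 systems differed between basal and non-basal cells. All 3 angiotensin II receptor genes were lower in the basal fraction, led by Agtr2 at 12.1-fold, and so was Nos3, the endothelial nitric oxide synthase gene. None of the 8 members was higher. Agt, Ace, Mas1 and Nos1 did not pass the test. In limma with Benjamini-Hochberg adjustment 4 of 8 members were called lower at an adjusted p under 0.05, against 7.14% of all genes tested that were called lower, 7.71% called higher and 14.9% called in either direction. In 5 of the 8 members, those 4 and Agt, all basal arrays lay below all non-basal arrays, and in 0 they lay above; over all genes tested such separation was seen downward in 15.3%, upward in 17.6% and either way in 32.9%. The median difference was -0.78 over the 8 members and 0.0034 over all genes tested. At an unadjusted p under 0.05 the same count held, with 4 lower and 0 higher. The members were chosen with earlier results of these data known, so these shares are no independent test of the list. Agtr1a and Agtr1b, whose probe sets may share signal, are both in the count.

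**Figure D1:**
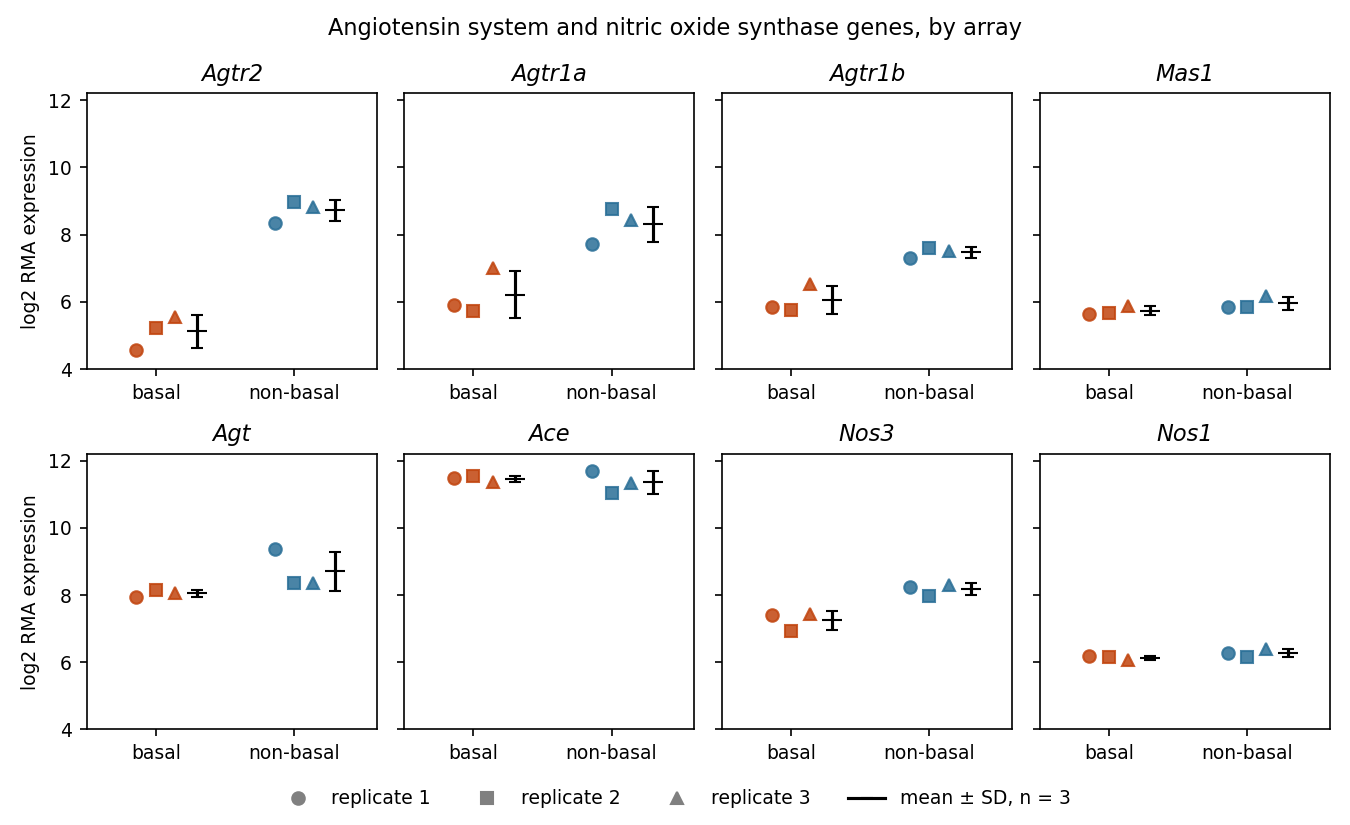
Log2 RMA expression of the 8 measured members on each of the 6 arrays; symbols mark the replicate number and black bars the mean ± SD (n = 3). The basal and non-basal arrays of Agtr2 lie apart, at 4.58 to 5.56 against 8.36 to 8.98, whereas those of Ace, Mas1 and Nos1 overlap.

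Agtr2 encodes the type 2 angiotensin receptor, a G protein-coupled receptor whose effects often oppose those of the type 1 receptors. Its level was 4.58, 5.21 and 5.56 on the basal arrays and 8.36, 8.98 and 8.81 on the non-basal arrays. All 3 basal arrays were low and all 3 non-basal arrays high, with a gap of 2.81 between the nearest arrays. The means were 5.12 ± 0.494 (SD, n = 3) and 8.72 ± 0.320 (n = 3), and the log2 difference was -3.60 with an SE of 0.282 (limma adjusted p = 0.00218). Below, a difference is followed by its SE. Only 20 of the 18166 genes had a lower difference. The call held each time 1 of the 6 arrays was left out, with adjusted p between 0.00256 and 0.0232 and differences between -3.82 and -3.33. The basal mean of Agtr2 lay below 6.02, the first quartile of the gene means in that fraction, and the non-basal mean lay close to 8.82, the third quartile there. Quartiles place a probe set in the range of the array and are no measure of transcript amount, and the deposited values carry no detection call.

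Agtr1a encodes the main type 1 receptor of rodents, which mediates vessel constriction and salt retention. Its level was 5.91, 5.72 and 7.0 on the basal arrays and 7.73, 8.75 and 8.44 on the non-basal arrays. The groups did not overlap, but basal replicate 3 came within 0.730 of non-basal replicate 1. The difference was -2.10 ± 0.412, or 4.28-fold (limma adjusted p = 0.0228), between means of 6.21 ± 0.694 and 8.31 ± 0.523 (SD, n = 3 each). When arrays were left out singly, this call held in 2 of 6 fits, those lacking basal replicate 3 or non-basal replicate 1. It was lost without basal replicate 1 (adjusted p = 0.0980) or 2 (0.0966) and without non-basal replicate 2 (0.0868) or 3 (0.105), with differences between -2.50 and -1.85 over the 6 fits.

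Agtr1b encodes the second type 1 receptor of rodents. Its level was 5.86, 5.76 and 6.52 on the basal arrays and 7.30, 7.59 and 7.52 on the non-basal arrays. Here too basal replicate 3 was the highest basal array and non-basal replicate 1 the lowest non-basal array, and the groups stayed 0.778 apart. The means were 6.05 ± 0.412 and 7.47 ± 0.154 (SD, n = 3 each), a difference of -1.42 ± 0.214, or 2.68-fold (limma adjusted p = 0.00963). The call was lost at an adjusted p of 0.0520 without basal replicate 1, 0.0517 without non-basal replicate 2 and 0.0597 when non-basal replicate 3 was dropped. Agtr1a and Agtr1b are duplicates of similar coding sequence, so signal may be shared between their probe sets and the split between them is uncertain.

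The differences of the receptor genes can also be set side by side within each array. The Agtr2 value minus the Agtr1a value was -1.33, -0.50 and -1.45 on the basal arrays and 0.63, 0.23 and 0.37 on the non-basal arrays. The Agtr2 value minus the Agtr1b value was -1.28, -0.54 and -0.96 on the basal arrays and 1.07, 1.39 and 1.30 on the non-basal arrays. In both pairs the gap on each basal array was lower than on each non-basal array. These gaps are between different probe sets, so neither their size nor their sign says which receptor was more abundant, and the shift between the fractions was not tested.

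The 250 bases before the transcription start of the 4 members that passed the test are shown as a description. Shared control of these genes was not tested. The sequences were taken from RefSeq on the GRCr8 assembly, where 8 of the 9 members had an entry. They are written 5′ to 3′ on the strand of the gene. Capitals mark TATAA, the core of a TATA box, and GGGCGG, the core of a GC box, found on either strand. The regions are chr17:34435433-34435682 (minus strand) for Agtr1a, chr2:104849263-104849512 (minus strand) for Agtr1b, chrX:116914070-116914319 (plus strand) for Agtr2 and chr4:11706582-11706831 (minus strand) for Nos3.
Agtr1a: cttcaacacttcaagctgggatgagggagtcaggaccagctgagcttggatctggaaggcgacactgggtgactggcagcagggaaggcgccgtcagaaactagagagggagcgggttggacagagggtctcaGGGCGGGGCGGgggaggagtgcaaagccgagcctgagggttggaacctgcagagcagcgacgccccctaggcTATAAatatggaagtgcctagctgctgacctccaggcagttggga
Agtr1b: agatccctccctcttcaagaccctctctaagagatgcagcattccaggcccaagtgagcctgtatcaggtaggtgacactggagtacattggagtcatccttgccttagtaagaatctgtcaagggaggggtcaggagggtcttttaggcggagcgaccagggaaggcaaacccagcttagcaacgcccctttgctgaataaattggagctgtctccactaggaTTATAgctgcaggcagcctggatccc
Agtr2: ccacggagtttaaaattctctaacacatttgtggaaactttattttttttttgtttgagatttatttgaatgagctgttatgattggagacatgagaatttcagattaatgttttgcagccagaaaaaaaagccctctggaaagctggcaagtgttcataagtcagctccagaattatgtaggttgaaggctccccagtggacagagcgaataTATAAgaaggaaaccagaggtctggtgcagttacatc
Nos3: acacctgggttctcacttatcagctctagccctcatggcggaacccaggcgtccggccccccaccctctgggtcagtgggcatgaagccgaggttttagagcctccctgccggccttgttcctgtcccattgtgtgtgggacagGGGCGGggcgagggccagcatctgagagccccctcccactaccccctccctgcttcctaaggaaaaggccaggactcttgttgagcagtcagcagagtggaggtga

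TATAA was found in the regions of Agtr1a, Agtr1b and Agtr2, at 45, 26 and 37 bases before the start, with the Agtr1b match on the opposite strand. GGGCGG was found in those of Agtr1a, where 2 matches overlap by 1 base, and of Nos3. Over all 33469 promoters of this length, 24.0% held TATAA and 30.5% held GGGCGG. The GC content was 60.8% for Agtr1a, 52.8% for Agtr1b, 38.0% for Agtr2 and 62.4% for Nos3, with a median of 51.2% over all promoters. In a global alignment the Agtr1a and Agtr1b regions were identical in 55.2% of columns, against 45.7% for Agtr1a with Agtr2 and 44.7% for Agtr1b with Agtr2. A match is a description of the letters and not evidence of a site in use.

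Mas1 encodes a receptor for angiotensin-(1-7). Its level was 5.65, 5.67 and 5.89 on the basal arrays and 5.84, 5.84 and 6.18 on the non-basal arrays. The groups overlapped, since basal replicate 3 lay above non-basal replicates 1 and 2. The difference was -0.22 with a 95% interval of -0.53 to 0.08 (limma adjusted p = 0.287), so changes of the size measured for the other receptors lay outside the interval. On all 6 arrays the values lay below or near the first quartile of gene means, 6.02 in the basal fraction and 6.08 in the other. Without a detection call, the interval bounds the signal of this dim probe set and not necessarily a change of the transcript.

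Agt encodes angiotensinogen, the precursor of all angiotensin peptides. Its level was 7.94, 8.15 and 8.06 on the basal arrays and 9.38, 8.35 and 8.36 on the non-basal arrays. The basal arrays lay below all non-basal arrays by 0.199 at the nearest, and non-basal replicate 1 stood well above the other non-basal arrays. The difference of -0.65 ± 0.288 did not pass (95% interval -1.35 to 0.06, limma adjusted p = 0.197). Leaving out 1 array gave differences between -0.82 and -0.31 and adjusted p between 0.0738 and 0.380. In this gene non-basal replicate 1 was the highest array, whereas in Agtr2, Agtr1a and Agtr1b it was the lowest non-basal array. The principal cell markers, of which all 10 differences were negative, 5 had an unadjusted p under 0.05 and 1 was called lower, had mean levels of 11.51 on non-basal replicate 1, 11.22 and 11.19 on the other non-basal arrays and 10.25 to 11.15 on the basal arrays, and their part in the Agt values was not tested. The count called lower was 6 without basal replicate 3, 2 without non-basal replicate 1 and 0 without any other array.

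Ace encodes angiotensin-converting enzyme, a peptidase of endothelial and epithelial surfaces that is also made by male germ cells. Its level was 11.49, 11.53 and 11.37 on the basal arrays and 11.70, 11.04 and 11.32 on the non-basal arrays. The highest and the lowest values both belonged to non-basal arrays, with the basal arrays between them. The difference was 0.11 ± 0.170 (95% interval -0.31 to 0.52, limma adjusted p = 0.706), and its sign turned without non-basal replicate 2 (-0.05). All 6 arrays lay well above 8.83, the third quartile of gene means in the basal fraction. Of 9 sperm and germ cell markers 1 was lower and 0 were higher in the basal fraction, with mean levels of 5.52 to 5.6 on the basal and 5.73 to 5.94 on the non-basal arrays. That count of 1 was 0 without basal replicate 1 or 2 or non-basal replicate 2 or 3.

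Nos3 encodes the endothelial nitric oxide synthase. Its level was 7.40, 6.92 and 7.44 on the basal arrays and 8.24, 7.97 and 8.30 on the non-basal arrays. The 2 fractions did not overlap, with 0.536 between the nearest arrays. The means were 7.25 ± 0.287 and 8.17 ± 0.174 (SD, n = 3 each), a difference of -0.92 ± 0.167, or 1.89-fold (limma adjusted p = 0.0178). The call was lost without basal replicate 1 (adjusted p = 0.0570) and without non-basal replicate 3 (0.0870).

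Nos1 encodes the neuronal nitric oxide synthase. Its level was 6.19, 6.15 and 6.06 on the basal arrays and 6.27, 6.16 and 6.40 on the non-basal arrays. Basal replicate 1 lay above non-basal replicate 2, so the groups overlapped, and all 6 values were close to the first quartile of gene means. The difference was -0.14 ± 0.0832 (95% interval -0.35 to 0.06, limma adjusted p = 0.306).

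**Figure D2:**
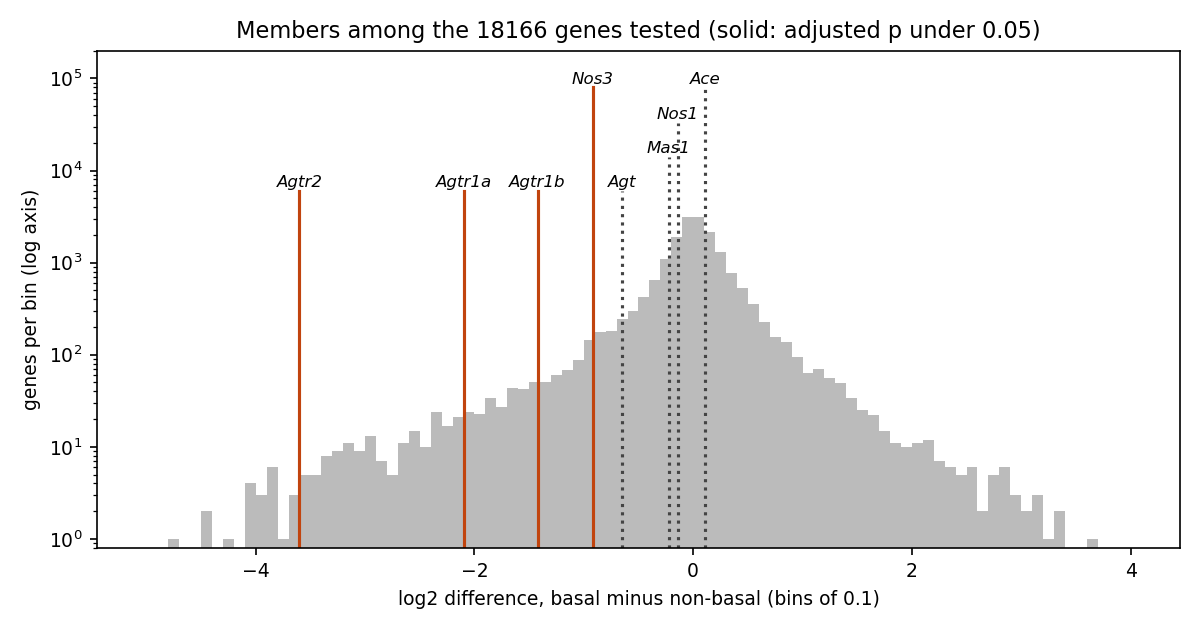
Number of genes (log axis) by log2 difference, basal minus non-basal, over all genes tested, with vertical lines at the 8 members (solid where called, dotted where not; line height has no meaning). Agtr2 lies in the far left tail at -3.60, Agtr1a, Agtr1b and Nos3 lie left of the centre, and Ace and Nos1 lie within its bulk.

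The fractions also differed in other cell types, whose markers are given beside these calls. Of 14 fibroblast markers 14 were lower in the basal fraction; the list mean was 7.04, 7.47 and 8.62 on the basal arrays and 10.69, 11.67 and 11.48 on the non-basal arrays. Dropping single arrays lowered the count to 7 for basal replicate 2, 7 for non-basal replicate 3 and 8 for non-basal replicate 2. Among the 15 markers of smooth muscle and pericytes, 12 were lower and 0 higher, with list means of 8.25, 8.30 and 8.79 on the basal arrays and 9.95, 10.11 and 10.08 on the non-basal arrays. Of the 15 differences 14 were negative, and in 1 marker all basal arrays lay above all non-basal arrays. The higher count was 1 without basal replicate 3, with array weights and at group means of at least 5 or 7. Synpo2, a bright marker of this list, did not pass at -0.24 (limma adjusted p = 0.0978). Dcn, which encodes decorin, averaged 9.48 ± 1.44 against 13.43 ± 0.373, and Tagln, a smooth muscle actin-binding protein gene, 10.70 ± 0.258 against 12.28 ± 0.0312. Basal replicate 3 held the highest basal value of both lists and of Agtr2, Agtr1a and Agtr1b, and non-basal replicate 1 the lowest non-basal value of each. The lymphocyte, mast cell, and Schwann cell and neuron lists had the same highest basal and lowest non-basal array. The part of any of these cell types in the receptor differences was not tested. In such bulk fractions fewer cells of a type and less RNA per cell cannot be told apart.

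Of 13 endothelial markers, 12 were lower and 0 higher, and the list mean was 6.97, 6.91 and 7.23 on the basal arrays and 8.46, 8.27 and 8.39 on the non-basal arrays. Cdh5, the endothelial cadherin gene, averaged 7.19 ± 0.603 against 9.46 ± 0.0889. Basal replicate 2 held the lowest basal and non-basal replicate 2 the lowest non-basal value of both this list and Nos3. The clear cell list, given below, had the same lowest basal and lowest non-basal array. The part of endothelial RNA in the Nos3 difference was not tested. Of 12 Schwann cell and neuron markers 1 was lower and 1 higher, with list means of 6.51 to 6.66 on the basal and 6.78 to 7.19 on the non-basal arrays. Without non-basal replicate 1 the lower count was 5, and it was 0 without basal replicate 1 or 2 or non-basal replicate 2; the higher count stayed at 1 only without basal replicate 3.

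The clear cells are those to which the reported signal is sent. Of their 10 markers 0 were called by limma, 1 had an unadjusted p under 0.05, and list means were 8.46 to 8.80 on the basal and 8.60 to 9.12 on the non-basal arrays. Of 12 macrophage markers 2 were lower, and non-basal replicate 1, at a list mean of 7.65, lay within the basal range of 7.54 to 7.94, below the remaining non-basal arrays at 8.86 and 8.72. Of 13 lymphocyte markers 5 were lower, with list means of 6.10 to 6.29 on the basal and 6.82 to 7.59 on the non-basal arrays. Of 8 mast cell markers 0 were called by limma, while 5 had an unadjusted p under 0.05. Without non-basal replicate 1 the lower counts were 7 of the macrophage, 10 of the lymphocyte and 4 of the mast cell markers. Without basal replicate 1 or 2 or non-basal replicate 2 or 3 they were 0, 3 and 0. Without basal replicate 3 they were 1, 4 and 0, and 1 clear cell marker was lower.

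**Figure D3:**
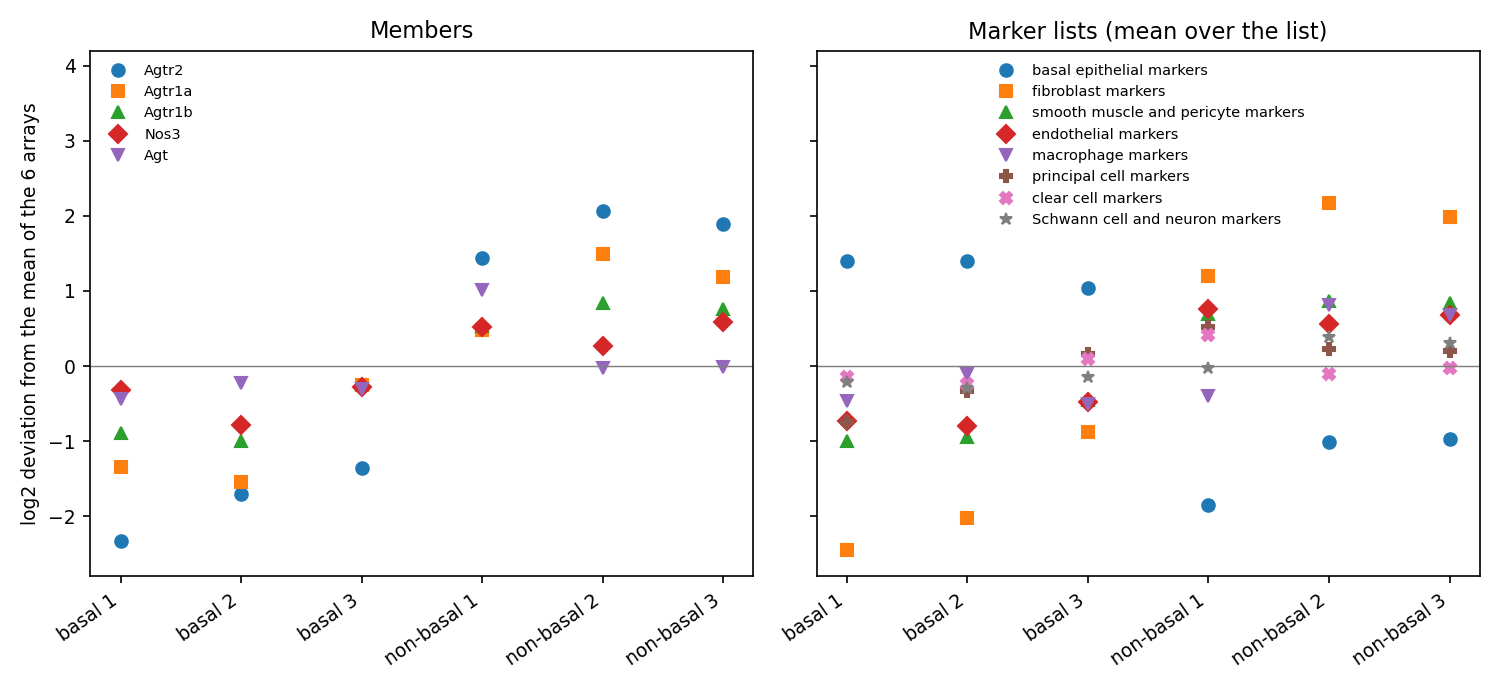
Deviation of each array from the mean of the 6 arrays, in log2 units, for 5 members (left) and for the mean of 8 marker lists (right); array numbers are names and have no order. Basal replicate 3 is the basal array nearest to 0 for Agtr2, Agtr1a, Agtr1b, Nos3 and every list shown but the macrophage list. For Agt and the macrophage list that array is basal replicate 2. The basal epithelial list lies above 0 on all 3 basal arrays.

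For each called member the 3 genes nearest in pattern, by the root mean square distance between gene-centred log2 values over the 6 arrays, were drawn from all genes tested. For Agtr2 these were Ddr2, a collagen receptor kinase gene, Postn, which encodes the matrix protein periostin, and Cd7, a lymphocyte surface protein gene, at distances of 0.226, 0.226 and 0.228. For Agtr1a they were Asb2, Sulf1 and Rarres2, at 0.133 to 0.171. Those of Agtr1b were Foxs1, Gli1, a transcription factor of the hedgehog pathway, and the phosphodiesterase gene Pde3a, at 0.0502 to 0.0871. Those of Nos3 were Chn1, Tek, the endothelial angiopoietin receptor gene, and Edn3, an endothelin gene, at 0.0703 to 0.103. All 12 were lower in the basal fraction, and since the arrays fall into 2 groups the measure mostly reflects the size of that difference.

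Of the other genes of the angiotensin pathway, 23 were measured of 26 listed, and 2 were lower and 0 higher (8.7%), with a median difference of -0.10. Over all genes tested 14.9% were called in either direction and 7.14% lower, so the share of this list was near the background for lower genes; the other 3 were not analysed here. Anpep, an aminopeptidase that trims angiotensin III, averaged 6.50 ± 0.526 on basal and 8.63 ± 0.624 on non-basal arrays (SD, n = 3 each), a difference of -2.13 ± 0.387 (limma adjusted p = 0.0178). Mtus1, whose product binds the type 2 receptor, was lower by -0.80 ± 0.133, at 8.43 ± 0.215 against 9.22 ± 0.144 (adjusted p = 0.0134). The Anpep call was lost without basal replicate 1 or 2 or non-basal replicate 2 or 3 (adjusted p up to 0.0896), and the Mtus1 call without basal replicate 1 or 2 or non-basal replicate 2 (up to 0.0675).

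Atp6ap2, a proton pump accessory subunit, had a difference of 0.23 (limma adjusted p = 0.212). It passed in 3 alternative fits, among them the fit without basal replicate 3 (0.34, limma adjusted p = 0.0366). Lnpep, the aminopeptidase known as the angiotensin IV receptor, had a difference of 0.10 (adjusted p = 0.429).

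In the nitric oxide and cyclic GMP pathway, 31 genes were measured of 35 listed, and 10 of them (32.3%) were called, against 14.9% of all genes: 6 were lower and 4 higher, with a median difference of -0.20. The other 4 listed genes were not analysed here. The higher genes act on arginine and its methylated forms or on the actin cytoskeleton. Ddah1, which breaks down methylarginines that inhibit nitric oxide synthases, was 10.19, 9.84 and 9.94 on the basal arrays and 7.87, 7.92 and 7.92 on the non-basal arrays. The basal arrays were all high and the non-basal arrays nearly equal, giving a difference of 2.09 ± 0.102, or 4.25-fold (limma adjusted p = 0.00111), and the call held in all 6 fits with 1 array left out.

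Vasp, an actin regulator and substrate of the cyclic GMP-dependent kinase, was higher by 0.94 ± 0.118 (limma adjusted p = 0.00557), a call that also held in all 6 such fits. Ass1, which makes the arginine precursor argininosuccinate, was higher by 0.96 ± 0.229 (adjusted p = 0.0426), and the arginine transporter gene Slc7a1 by 0.47 ± 0.106 (adjusted p = 0.0345). The Ass1 call was lost without basal replicate 1 or 2 or non-basal replicate 2 or 3 (adjusted p up to 0.159), and the Slc7a1 call without any array but basal replicate 3 (up to 0.130). A second arginine transporter gene, Slc7a2, was lower at -1.46 ± 0.223 (adjusted p = 0.0101), a call lost without basal replicate 1 or 2 or non-basal replicate 3 (up to 0.0573).

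The other lower genes form, degrade or respond to cyclic GMP. The guanylate cyclase subunit genes Gucy1b1 and Gucy1a2 were lower at -1.08 ± 0.200 and -0.63 ± 0.157 (limma adjusted p = 0.0191 and 0.0471). Gucy1a1, the partner subunit gene, averaged 6.36 ± 0.285 against 7.21 ± 0.389 (SD, n = 3 each), a difference of -0.85 ± 0.233 that did not pass (limma adjusted p = 0.0634). It passed in 7 alternative fits and not in 9, and centring of each array on its median was among the 7 (limma adjusted p = 0.0401). Prkg1, the cyclic GMP-dependent kinase gene, was lower at -1.31 ± 0.199 (adjusted p = 0.0100), Irag1, a substrate of that kinase at calcium stores, at -1.65 ± 0.231, and the phosphodiesterase gene Pde3a at -1.44 ± 0.202. The Prkg1 call held in all 6 fits with 1 array left out. Those of Irag1 and Pde3a were lost without non-basal replicate 3 (adjusted p = 0.0517 and 0.0508), and that of Gucy1b1 without basal replicate 1 or 2 or non-basal replicate 2 or 3 (up to 0.0912). Gucy1a2 passed only without basal replicate 1 among these fits.

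The inducible synthase gene Nos2 averaged 8.39 ± 0.482 on basal and 9.27 ± 0.516 on non-basal arrays (SD, n = 3 each), a difference of -0.88 ± 0.337 that did not pass (limma adjusted p = 0.143). It passed in 2 alternative fits, among them the fit with array weights (limma adjusted p = 0.0444). Pde5a, the cyclic GMP phosphodiesterase gene, had a difference of -0.39 ± 0.109 (limma adjusted p = 0.0655). It passed in 2 alternative fits, among them the fit without non-basal replicate 3 (limma adjusted p = 0.0486). Adcy10, the bicarbonate-sensing adenylyl cyclase of clear cells and sperm, had a difference of -0.04 (adjusted p = 0.772). The fibroblast, smooth muscle and endothelial lists given above were lower in the same fraction as Prkg1, Irag1, Pde3a and the cyclase subunits. So were 5 of 13 lymphocyte markers. The part of any of these cell types in these differences was not tested.

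**Figure D4:**
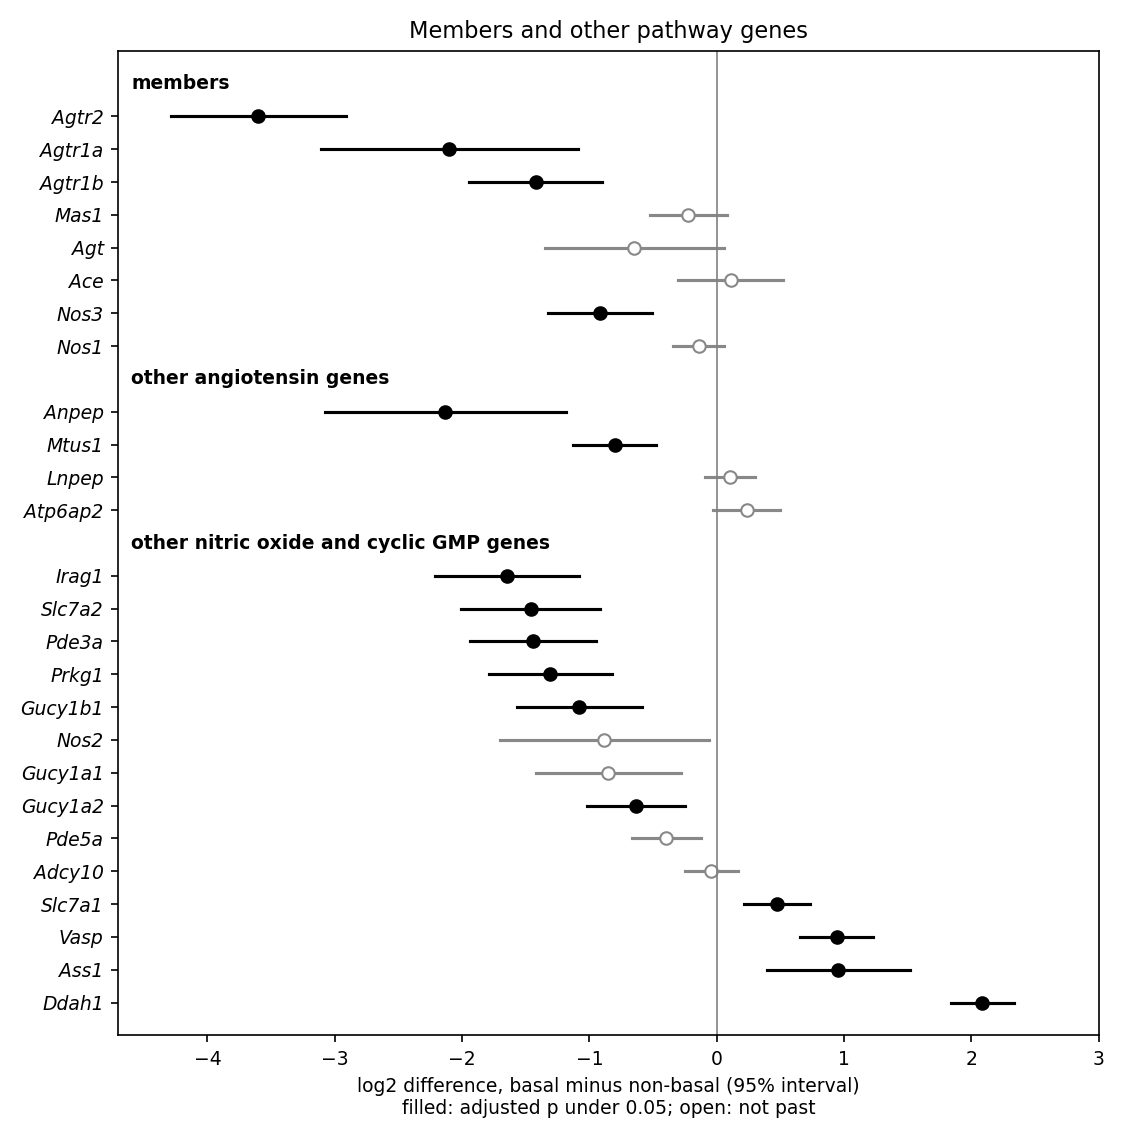
Log2 difference, basal minus non-basal, with its 95% interval from limma, for the 8 members and for the pathway genes named in the text; filled points passed an adjusted p under 0.05 and open points did not. The receptors Agtr2, Agtr1a and Agtr1b lie left of 0 with Prkg1, Irag1 and Pde3a, while Ddah1, Vasp, Ass1 and Slc7a1 lie right of it.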

How the data were processed

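Log2 expression values were deposited. The submitters' processing notes name RMA, which corrects background, quantile-normalizes and summarises probes, as the authors' method, and Affymetrix Expression Console as its program; version and annotation build are not given in the sources used here. RMA equalises the distributions, so a shift shared by most genes would be removed. In the platform annotation 18511 of 36685 probe sets carried 1 symbol, 575 several and 17599 none; the probe set with the highest mean stood for a gene (291 genes had several, no member did). Groups and replicate numbers came from the sample titles. All 18166 genes were fitted by limma 3.58.1 (lmFit, eBayes; R 4.3.3), two-sided and with no block, on 4 residual degrees of freedom. P-values were adjusted by the Benjamini-Hochberg method with a threshold of 0.05. SEs and 95% intervals are limma's moderated ones. Dim probe sets were kept. The procedure was tested on simulated data. All 9 members, the pathway genes past the threshold, a fixed set of further pathway genes, the 3 nearest patterns of each called member and bright markers were named. The members and all lists were chosen with earlier results of these data known. Alternatives were a replicate block, quantile normalization, median centring, group means of at least 5 or 7, an intensity trend with robust variances, array weights, other summaries of probe sets, and each array left out; dropping both arrays that stood apart, basal replicate 3 and non-basal replicate 1, was chosen after seeing the data. Promoters came from RefSeq (GRCr8).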

Additional observations from a re-analysis of the deposited data

How the results depend on the processing

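The number of members called lower was 4 under every alternative that kept all 6 arrays and 3 without basal replicate 3 and non-basal replicate 1 together, where Nos3 had a limma adjusted p of 0.0568. With 1 array left out the number ranged from 1 to 4, and no member was called higher in any fit. In the main limma fit 0 were higher at an unadjusted p under 0.05 as well, a count not made for the other fits. Fits with 1 array left out called 542 to 1607 of all genes lower and 509 to 2068 higher; array weights called 2323 lower and 2868 higher, and leaving out both arrays 2124 and 2499. Of the other angiotensin genes, 4 were lower after median centring and with a group mean of at least 7, 7 with array weights (1 higher), 6 without both arrays (1 higher), 0 to 4 with 1 array left out (0 to 1 higher). In the nitric oxide and cyclic GMP list, 2 to 6 were lower and 2 to 4 higher with 1 array left out. With the replicate number as a block, 4 members were lower, 1 other angiotensin gene was lower, and 5 genes of the nitric oxide list were lower and 2 higher. Under that block the limma adjusted p was 0.0508 for Mtus1, 0.0668 for Ass1, 0.0710 for Slc7a1, 0.0547 for Gucy1b1 and 0.0860 for Gucy1a2, which lost their calls, and 0.0486 for Nos2, which passed. The numbers did not qualify as pairs: deviations of equally numbered arrays correlated across genes at 0.0312, 0.0383 and 0.0278, though 6 of 6 arrays correlated best with their own number, a hint from the data and not the design. The sign turned for Ace without non-basal replicate 2 (-0.0471, with a highest value of 0.2828 without non-basal replicate 1), and for Adcy10 without non-basal replicate 1 (0.0234, with a lowest value of -0.1141 without non-basal replicate 2) and without both arrays (0.0234). Where a loss came from leaving out an array, fewer samples entered the fit. Mas1 and Nos1 were not tested at a group mean of at least 7, where Gucy1a2 and Adcy10 also gave no value. Precision is limited by 3 arrays per fraction, and the deposited values carry no background signal.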

Other observations

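Some values were repeated to every deposited digit. In 6408 of 18166 genes (35.3%) at least 2 of the 6 arrays held the same value, 2438 of them within the basal and 2589 within the non-basal fraction. Of the 8 members only Mas1 was among them, with 5.84483 on both non-basal replicates 1 and 2. For Adcy10 all 3 basal arrays held 5.69, so its basal SD was 0. A repeated value lowers the SD of its group, and the tests of these genes lean on the spread that limma borrows from other genes.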
